A study of Homo sapiens with 17 samples.

Results

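EZH2 with aspartate in place of a tyrosine (Y244D) was compared with EZH2 with alanine at the same residue (Y244A) in NKYS, a human NK/T-cell lymphoma line kept in interleukin-2. The arrays were chosen by their titles and transfection fields, which place 7 of the 17 arrays in the comparison: 5 that are read as 1 of the 2 alleles and the 2 empty vector controls. All were plasmid electroporations of the same line, in 2 sets. Set 1 had 1 array each of Vector Control-1, EZH2 Y244D-1, EZH2 Y244A-1 and EZH2 WT-1, and set 2 had another vector array and 3 full-length EZH2 plasmid arrays. All cells also kept their own EZH2 gene, and neither the time from electroporation to harvest nor the promoter of the plasmids is given in the sources used here. Groups therefore hold 1 array per allele and set, and the labels do not say whether the sets were separate cultures.

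EZH2 is the enzyme of Polycomb repressive complex 2 (PRC2), which places methyl groups on lysine 27 of histone H3 and thereby keeps genes silent. It works with the subunits EED and SUZ12, and it can also act as a coactivator outside this complex. JAK3, the kinase that signals from receptors using the common gamma chain, such as the interleukin-2 receptor, phosphorylates EZH2 on this tyrosine. Aspartate carries a negative charge and serves as an imitation of the phosphorylated residue, whereas alanine cannot be phosphorylated. The comparison asks whether these 2 forms of EZH2 leave different transcript levels.

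The labels of set 2 contradict each other, and every result depends on how they are read. The array titled Y244D-2 has EZH2 WT in its transfection field. The array titled Y244A-2 has MtCA there, and the array titled EZH2 WT has Mt2. The latter title holds no set number, so that array was placed in set 2 by its field. In set 1 the field MtCA1 belongs to the array titled Y244D and Mt1 to the array titled Y244A, so that by field the MtCA array was read as Y244D and the Mt2 array as Y244A, a match of codes that is an assumption. The 3 set 2 arrays are called the WT-field, the MtCA and the Mt2 array below. By title, Y244D minus Y244A in set 2 is the WT-field array minus the MtCA array. By field it is the MtCA array minus the Mt2 array. The MtCA array thus has opposite roles in the 2 readings, and a gene can be higher with Y244D under both only if it runs from high to low over the WT-field, MtCA and Mt2 arrays in that order.

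EZH2 transcript was above its vector on every EZH2 plasmid array. Its signal was 258.8 on the vector, 2221 on the Y244D, 852.9 on the Y244A and 1020 on the wild type array of set 1. In set 2 it was 349.5 on the vector, 802.5 on the WT-field, 1177 on the MtCA and 881.3 on the Mt2 array. The Y244D array of set 1 stood highest, and in set 2 the MtCA array did. Y244D minus Y244A was 1.38 on the log2 scale in set 1, -0.55 in set 2 by title and 0.42 by field. The alleles were therefore compared at unequal EZH2 levels, and the part of dose in any difference below was not tested. EZH2 was also the only gene called against the vector. In the field reading, Y244D minus vector was 2.43 with an SE of 0.259 (n = 2 against 2 arrays, adjusted p = 0.0289, limma), and by title 2.15 with an SE of 0.412 (adjusted p = 1, limma). The field call was lost without the Y244D array of set 1, without the block, with median centring and with no filter on low signal. The EZH2 signal does not tell plasmid from endogenous transcript, nor the alleles from each other.

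**Figure D1:**
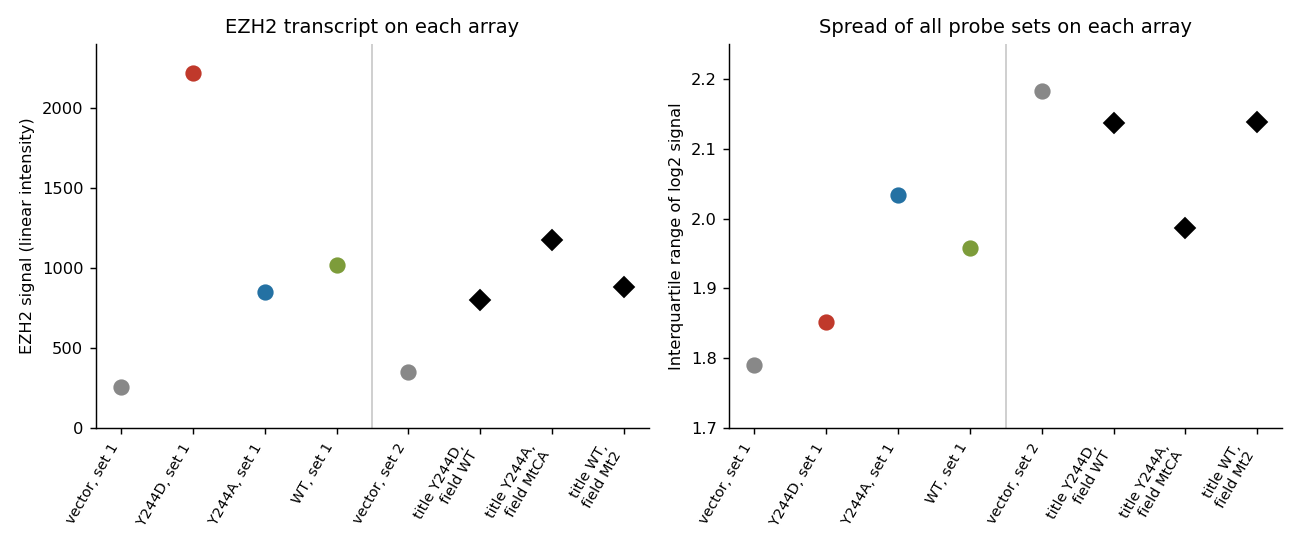
EZH2 signal (left, linear intensity from 0) and the interquartile range of log2 signal over all probe sets (right) on each of the 8 plasmid arrays, 1 point per array with no error bar. The highest EZH2 signal, 2221, is on the Y244D array of set 1, and the vector arrays of the 2 sets have the narrowest and the widest spread, 1.79 and 2.183.

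JAK3 signal was 206.4 on the vector, 203.5 on the Y244D, 283.6 on the Y244A and 246.7 on the wild type array of set 1. In set 2 it was 262.5 on the vector, 258.1 on the WT-field, 216 on the MtCA and 259 on the Mt2 array. It was thus lowest in set 2 on the MtCA array. Y244D minus Y244A was -0.48 in set 1, 0.26 by title and -0.26 by field, and the fits of all 8 arrays did not call JAK3. In the fit by field without a vector array, described below, the difference was -0.37 with an SE of 0.122 (adjusted p = 0.0232, limma), and after quantile normalization the adjusted p was 0.32.

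The arrays differed in ways that moved with these comparisons. The interquartile range of log2 signal was 1.852 on the Y244D and 2.034 on the Y244A array of set 1, and 2.137, 1.986 and 2.138 on the WT-field, MtCA and Mt2 arrays. The 2 vectors differed by at least 0.5 on the log2 scale (1.41-fold) in 52.9% of the 14410 genes tested. Of 11 NK cell markers, 7 lay above the median probe set on every array; the granule genes PRF1 (1641 to 2397) and GZMB (1180 to 2903) were high, and GNLY lay between 45.18 and 68.15. Summed signal of 11 epithelial and fibroblast markers, of which 5 were above and 4 under the median on every array, ran from 768.3 to 1255; it was 1109 with Y244D and 879.2 with Y244A in set 1, and 782.3, 985.4 and 779.2 on the WT-field, MtCA and Mt2 arrays. The NK marker sum was lower with Y244D in set 1 (5817 against 7061) and 5149, 4857 and 5018 on those 3 arrays, and the sum of 10 T cell markers was 800.8 against 897.7 and then 791.9, 766.2 and 819.3. Sums of 9 B cell markers (571.8 against 500.9, then 461.4, 502.4 and 469.3) and 10 monocyte markers (579.3 against 528.5, then 490.9, 540.9 and 482.1) ran the other way. The part of these markers in the allele differences was not tested.

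No gene differed between Y244D and Y244A in the same direction by 0.5 or more in set 1 and under both readings of set 2. The count was 0 of 14410 in each direction (0%), and it was also 0 at 0.3. Such agreement needs the MtCA array to lie between the WT-field and Mt2 arrays, at least the threshold away from each. Only 0.0972% of genes on the WT-field array and 0.111% on the Mt2 array were 0.5 or more from vector 2. A count of 0 was thus nearly fixed by these arrays, and it does not show that the alleles are alike. In sign alone 371 genes (2.57%) were higher and 334 (2.32%) lower with Y244D in all 3 differences. For the median agreeing gene the smallest of the 3 was 0.022, and for 25 genes it reached 0.1. These are 1-array differences, so that no spread and no p-value belongs to a single set.

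Of the genes higher with Y244D in all 3 differences, FAM86B3P, a pseudogene of a methyltransferase family, had the largest smallest difference, 0.22. Its signal was 135.7, 100.7, 80.99 and 62.86 on the vector, Y244D, Y244A and wild type arrays of set 1, and 66.85, 105, 84.88 and 72.75 on the vector, WT-field, MtCA and Mt2 arrays of set 2. The 2 vectors lay above and below both alleles, a gap of 1.02 on the log2 scale, so that the alleles kept an order that their vectors did not. ADH1A, an alcohol dehydrogenase, and DOC2B, a calcium sensor of vesicle fusion, followed with smallest differences of 0.19 each. SRMS (a Src-related kinase), DPM2 (a subunit of the dolichol-phosphate-mannose synthase), SPATA41, CFAP46, LILRP2, LCN8 and GOLGA4-AS1 made up the rest of the 10 highest.

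Of those lower with Y244D in all 3, CENPC, a protein of the inner kinetochore, reached -0.17. Its signal was 94.96 with Y244D against 120.2 with Y244A in set 1, and 162.1, 182.6 and 209.8 on the WT-field, MtCA and Mt2 arrays. All 4 arrays of set 1 lay below all 4 of set 2. BCL2, the antiapoptotic protein of the outer mitochondrial membrane, had 119.2 against 164.3 in set 1 and 90.18, 102.3 and 111.4 on the same set 2 arrays, with differences of -0.46, -0.18 and -0.12. CDC25A, the phosphatase that activates cyclin-dependent kinases, differed by -0.20, -0.11 and -0.16, and CHFR, a ubiquitin ligase of the mitotic entry checkpoint, by -0.19, -0.13 and -0.12. SNAI3-AS1, PAFAH1B3, KCND1, MIER2, the histone gene H2BC9 and SNORA13 complete this group. After quantile normalization 248 of the 705 genes that agreed in sign still did. Of the 20 named genes, which have the largest values, 18 did, and CHFR and H2BC9 did not.

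The fits across all 8 arrays, with vector, Y244D, Y244A and wild type as groups and the set as a block, called 0 genes between Y244D and Y244A under either reading (limma, adjusted p under 0.05). By title 10 genes had an unadjusted p under 0.05 (0.0694% of those tested), of which 4 were higher and 6 lower with Y244D. By field 2954 genes did (20.5%), 676 higher and 2278 lower, and the smallest adjusted p was 0.239. Genes with a small p in both readings had set 2 differences near 0 or an agreeing order. GOLGA4-AS1, an antisense RNA, was higher by 0.38 under each reading (SE 0.198 by title and 0.162 by field), and STX10, a syntaxin of endosome to Golgi traffic, was lower by 0.40 (SE 0.187) and 0.34 (SE 0.179). SPATA41, MAPK8IP1, KRTAP9-3 and PCID2 on the higher side and PPTC7, PWWP2A, SNORD102 and TAF13 on the lower side were the others named by this rule, none with a call.

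In set 1 alone, 322 genes (2.23%) were at least 0.5 higher with Y244D and 2204 (15.3%) lower, and 535 and 1357 after quantile normalization. Besides EZH2, the largest higher values were those of REXO1L1P (1.48), LOC100419773 (1.27), FAM86B2-DT and MYCNOS. REXO1L1P belongs to a repeated gene family, so that its probes may read several copies. The largest lower values were those of LMNB1 (-1.22), a protein of the nuclear lamina, SERPINB3 (-1.20), a protease inhibitor, PPAT (-1.13), the enzyme of the first committed step of purine synthesis, GTF2E1 (-1.13), a subunit of the general transcription factor TFIIE, and PPP4R2 (-1.11), a regulatory subunit of protein phosphatase 4. PPAT signal was 77.07, 62.08, 135.7 and 89.86 on the vector, Y244D, Y244A and wild type arrays. The Y244A array stood apart from the other 3. In set 2 alone 1062 genes (7.37%) were at least 0.5 higher and 119 (0.826%) lower with Y244D by title, and 217 (1.51%) higher and 1090 (7.56%) lower by field. After quantile normalization these were 558 and 152 by title and 202 and 642 by field.

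Distances from the vector of the same set describe where these differences lay when each vector is taken as the reference. On the Y244A array of set 1, 3514 genes were at least 0.5 above and 730 below the vector, together 29.5%. The Y244D array of that set differed in 4.8% and the wild type array in 15.7% (1779 above and 481 below). In set 2 the MtCA array had 214 genes above and 1440 below its vector (11.5%), whereas the WT-field array had 11 and 3 (0.0972%) and the Mt2 array 11 and 5 (0.111%). After quantile normalization the Y244A array of set 1 had 2599 above and 1177 below (26.2%), and the MtCA array 238 and 690 (6.44%). Relative to the vectors, set 1 thus gave its difference mainly through genes above the vector on the Y244A array. Set 2, under either reading, gave it through genes below the vector on the MtCA array. The vectors themselves differed by at least 0.5 in 52.9% of genes, and whether an allele array or a vector was displaced was not tested.

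**Figure D2:**
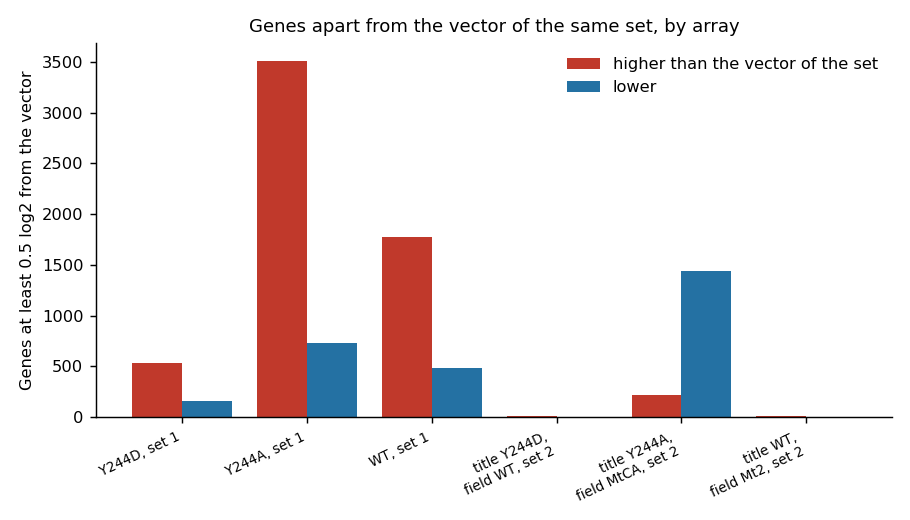
Number of genes at least 0.5 above (red) or below (blue) the vector of the same set on the log2 scale, for each EZH2 plasmid array, 1 array per pair of bars. The Y244A array of set 1 has 3514 genes above its vector and the array titled Y244A with field MtCA has 1440 below its vector, while the other set 2 arrays have at most 11 in a direction.

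Few genes lay away from the vector alike in both sets. Against the vector, limma called 0 genes for Y244D by title (8 at an unadjusted p under 0.05) and 0 for Y244A under either reading (13 by title and 697 by field). Leaving out vector 1 by field gave 1339 calls for Y244D, and leaving out vector 2 gave 96 for Y244D and 5191 for Y244A, where the lone vector is assumed to vary like the other groups. Read by title, EZH2 was the only gene at least 0.5 above both vectors with Y244D (0.00694%), and SNAI3-AS1 the only one below (0.00694%). Read by field, EZH2, FGF8 (a fibroblast growth factor), LOC100419773 and SIGLEC14 (an activating sialic acid receptor of myeloid cells) were above both with Y244D (0.0278%), and C4orf46, FIGNL1 (an ATPase of recombination repair), KIF11 (the kinesin that separates spindle poles), LRRTM4 and ST8SIA4 (a polysialyltransferase) were below (0.0347%). FGF8 signal was 131 on the Y244D array of set 1 against 83.03 on its vector, and 116 on the MtCA array against 78.42; the other 4 plasmid arrays lay between 75.16 and 90.19. ST8SIA4 was 103.8 against 149.1 and 101.5 against 158.3 on the same arrays. FGF8 was high and ST8SIA4 low on those 2 arrays relative to all 6 others. With Y244A, EZH2 and THUMPD3-AS1 were above both vectors by title (0.0139%) and EZH2 by field (0.00694%), and 0 genes were below (0%). These genes were chosen after their values were seen.

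Across the 14410 genes, Y244D minus Y244A of set 1 correlated with set 2 at r = -0.758 by title and r = 0.748 by field, as a description across genes, which are not replicates. By field 32 genes (0.222%) were at least 0.5 higher and 663 (4.6%) at least 0.5 lower with Y244D in both sets. By title 1 gene (0.00694%) was higher, CFAP44 of the ciliary axoneme, and 0 were lower (0%). The same set 1 difference correlated at r = 0.794 with vector 1 minus vector 2, a comparison with no EZH2 plasmid in it and no array in common. All of the 32 genes were above on vector 1, and 653 of the 663 (98.5%) were below, against 48.2% above and 51.7% below of all genes. The median between the vectors was -1.07 for the 663 and -0.05 for all genes. Both groups were picked partly by the set 1 difference, which itself correlated with the vector difference, so high shares follow from the selection. What set the vector arrays apart was not identified, and its part in the allele difference was not tested. Y244D minus Y244A also correlated with mean log2 signal, at r = -0.478 in set 1, 0.381 by title and -0.354 by field. With quantile normalization these values were -0.14, 0.017 and -0.013. The part of signal level in the differences of single genes and lists was not tested.

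**Figure D3:**
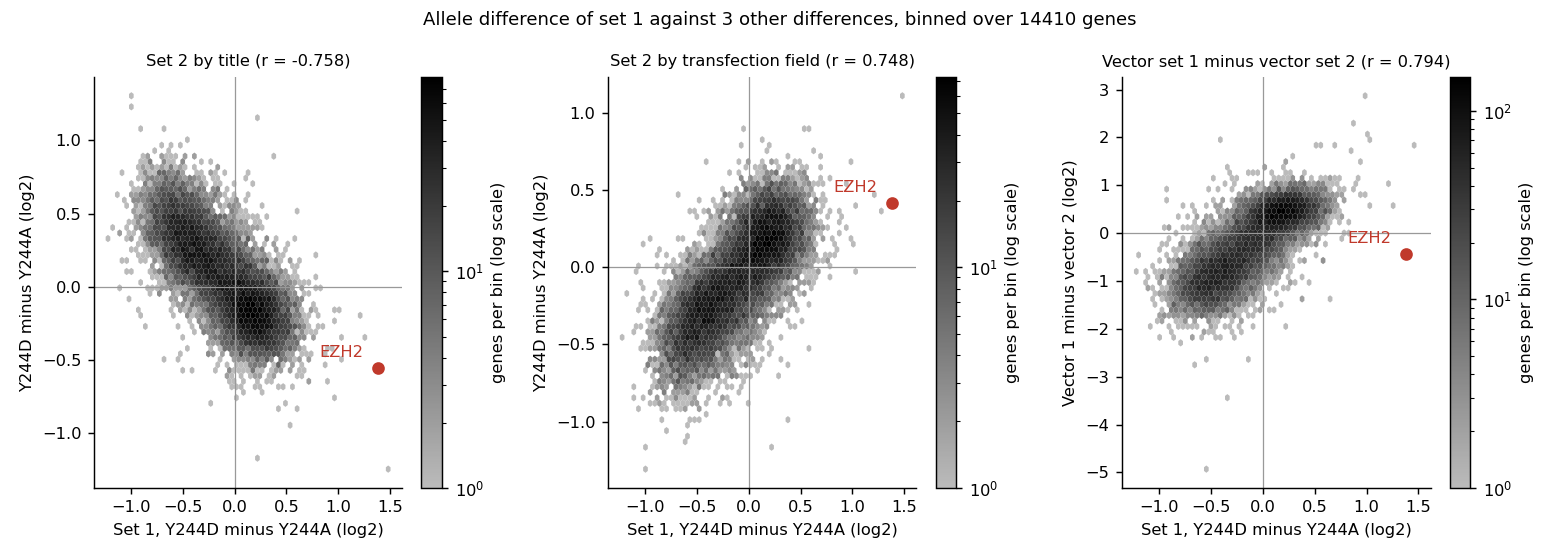
Log2 difference Y244D minus Y244A of set 1 (horizontal axis of each panel) against that of set 2 by title, of set 2 by field and against vector 1 minus vector 2, binned over 14410 genes with darker bins holding more genes. The cloud falls by title (r = -0.758) and climbs by field (r = 0.748) and against the vectors (r = 0.794); EZH2 is drawn in red at the right edge of each panel.

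Leaving out 1 vector array changed the field test. Without vector 1, or likewise without vector 2, the difference rests on the Y244D, Y244A and wild type arrays of the 2 sets (2 arrays per group, 2 residual degrees of freedom), and limma called 4822 genes (33.5%), 1110 higher (7.7%) and 3712 lower (25.8%). After quantile normalization this fit called 2593 genes, and the share of calls that were higher went from 23% to 31.1%; centring on the array median made it 5320 genes with 6.71% higher. By title the same fit called 0 genes, with 10 at an unadjusted p under 0.05. Named values below give this fit as the fit without a vector, beside the fit of all 8 arrays, in which none was called. It is not the main design, and it was carried forward with its calls known. It uses the same arrays as the differences by which genes were picked, so its p-values are no separate support for them.

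Mitotic genes were the list with the lowest set 1 median. Over 29 genes Y244D minus Y244A had a median of -0.57 in set 1, 0.40 by title and -0.56 by field, against -0.07, 0.03 and -0.03 for all genes. By field 14 of 29 were at least 0.5 lower in both sets (4.6% of all genes), and 0 were higher. In the fit without a vector 22 of 29 were called lower and 0 higher, and 23 lower after quantile normalization, against 25.8% and 12.4% of all genes called lower, while the fit of all 8 arrays called 0. The median between the 2 vectors was -0.61 in these same genes.

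AURKA, the kinase that matures the spindle poles, had 114.3 with Y244D and 199.6 with Y244A in set 1, where the vector had 111.3 and wild type 120.8. In set 2 it had 217.9 on the vector, 210.2 on the WT-field, 137.4 on the MtCA and 239.9 on the Mt2 array. The Y244A array of set 1 was high and the MtCA array of set 2 low, each alone in its set. By field the difference was -0.80 with an SE of 0.196 (adjusted p = 0.239, limma), and -0.80 with an SE of 0.134 in the fit without a vector (adjusted p = 0.000433, limma).

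CDK1, the kinase that drives entry into mitosis, had 40.33 with Y244D and 58.86 with Y244A in set 1, and 51.87, 32.71 and 65.12 on the WT-field, MtCA and Mt2 arrays. CCNB2, a cyclin that activates CDK1, had 76.97 and 132.1, and 128.7, 89.34 and 144.5 on the same arrays. Both showed the pattern of AURKA. KIF11 had 55.66 and 84.34, and 91.87, 69.49 and 115.8, with a vector of 80.58 in set 1 and 102.2 in set 2. It was below the vector on the set 1 Y244D array and on the MtCA array, and also on the wild type array of set 1 (62.21) and the WT-field array. The others among the 14 were the checkpoint genes MAD2L1, BUB1, BUB3 and TTK, the kinetochore genes CENPE and NUF2, and the spindle and midzone genes TPX2, HMMR, KIF23 and PRC1; they ranged from -0.73 to -0.52 in set 1 and from -1.14 to -0.56 by field. CDKN3 (-0.95 and -0.87), a phosphatase that acts on CDK2, and PLK4 (-0.84 and -0.89), the kinase of centriole duplication, were not in the list and were chosen after their values were seen.

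Promoters of such cell-cycle genes are known for the cell cycle genes homology region (CHR), which is bound by the MuvB complex, and for CCAAT boxes. RefSeq promoters of GRCh38.p14, 250 bases before to 50 after the start, were matched for 10 of the 14 genes. TTTGAA on either strand, the core of the CHR, was present in 8 of the 10 (80%), in 13 of 23 promoters of the whole list (56.5%), in 10.1% of 11250 promoters of tested genes and in 15.4% of all 27305. CCAAT on either strand was present in 8 of the 10 (80%), in 16 of 23 (69.6%) and in 35.7% of all promoters. Each motif was counted alone, whether or not the other lay over it, and a match is a description of letters. The 2 promoters below are the first 2, in order of the smaller of the set 1 and field differences, whose 250 bases before the start hold TTTGAA or TTCAAA; capitals mark these and CCAAT or ATTGG. They lie at chr15:59104896-59105145 (CCNB2, plus strand) and chr10:92592880-92593129 (KIF11, plus strand), upstream of the annotated start.
CCNB2: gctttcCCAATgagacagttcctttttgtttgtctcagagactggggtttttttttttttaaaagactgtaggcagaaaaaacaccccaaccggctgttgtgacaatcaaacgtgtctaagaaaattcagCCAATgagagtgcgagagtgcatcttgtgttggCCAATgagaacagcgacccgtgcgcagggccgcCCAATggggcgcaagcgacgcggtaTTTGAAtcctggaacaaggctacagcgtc
KIF11: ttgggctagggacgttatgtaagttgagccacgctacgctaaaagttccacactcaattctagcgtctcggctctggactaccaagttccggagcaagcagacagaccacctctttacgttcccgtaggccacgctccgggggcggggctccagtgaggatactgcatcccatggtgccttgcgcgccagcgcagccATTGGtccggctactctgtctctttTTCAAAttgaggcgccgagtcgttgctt
The CCNB2 stretch holds 4 CCAAT boxes and 1 CHR core, and the KIF11 stretch holds 1 of each on the opposite strand.

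DNA replication genes had medians of -0.46 in set 1, 0.26 by title and -0.31 by field over 43 genes. By field 6 of 43 (14%) were at least 0.5 lower in both sets, against 4.6% of all genes. They were MCM8, ORC3, ORC6, GINS1, RFC4 and TOP2A. After quantile normalization 3 of 43 were at least 0.5 lower, against 2.54% of all genes. The list medians were then -0.31 in set 1, 0.18 by title and -0.23 by field. RFC4, a subunit of the clamp loader, had 258.2 with Y244D and 373.4 with Y244A in set 1, and 345.1, 195 and 350.3 on the WT-field, MtCA and Mt2 arrays. It was lowest in set 1 on the vector (182.8), so that Y244D lay between vector and Y244A. MCM2 (-0.20, 0.03 and -0.18) and MCM4 (-0.47, -0.06 and 0.03), subunits of the replicative helicase, show that the group was not uniform. The fit without a vector called 27 of 43 lower and 0 higher, and 16 lower after quantile normalization, against 25.8% and 12.4% of all genes.

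Other growth lists had the same order by field. Of 25 genes of nucleotide and one-carbon synthesis, 3 were at least 0.5 lower in both sets (12%, against 4.6% of all genes). They were PPAT, PAICS (of purine synthesis) and RRM1 (of ribonucleotide reductase). The list medians were -0.43 in set 1, 0.34 by title and -0.37 by field, and after quantile normalization -0.2, 0.19 and -0.22. By field 1 of the 25 was then at least 0.5 lower in both sets, against 2.54% of all genes. PPAT had the smallest p of all genes in the field fit, with a difference of -0.99 and an SE of 0.161 (adjusted p = 0.239, limma). Of 22 ribosome biogenesis genes 4 were lower (18.2%), among them WDR12 (-0.77 and -0.60) and the pseudouridine synthase gene DKC1 (-0.59 and -0.57). Of 22 regulators of the G1-S step 2 were lower (9.09%). They were CCNE2 (-0.69 and -0.66), a cyclin of S phase entry, and RBL2 (-0.52 and -0.62), a pocket protein of the retinoblastoma family. With quantile normalization 2 of 22 genes were lower in each of these lists. The ribosome biogenesis medians in set 1 and by field went from -0.39 and -0.36 to -0.18 and -0.19 with this scaling. Those of the G1-S list went from -0.36 and -0.29 to -0.17 and -0.18. The 25 ribosomal protein genes had medians of -0.24 in set 1 and by field, with 0 at 0.5. The fit without a vector called 16 of 25, 13 of 22, 12 of 22 and 6 of 25 lower in these 4 lists, and 6, 7, 7 and 0 after quantile normalization, against 25.8% and 12.4% of all genes. The count of ribosomal protein genes was thus near the share of all genes.

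**Figure D4:**
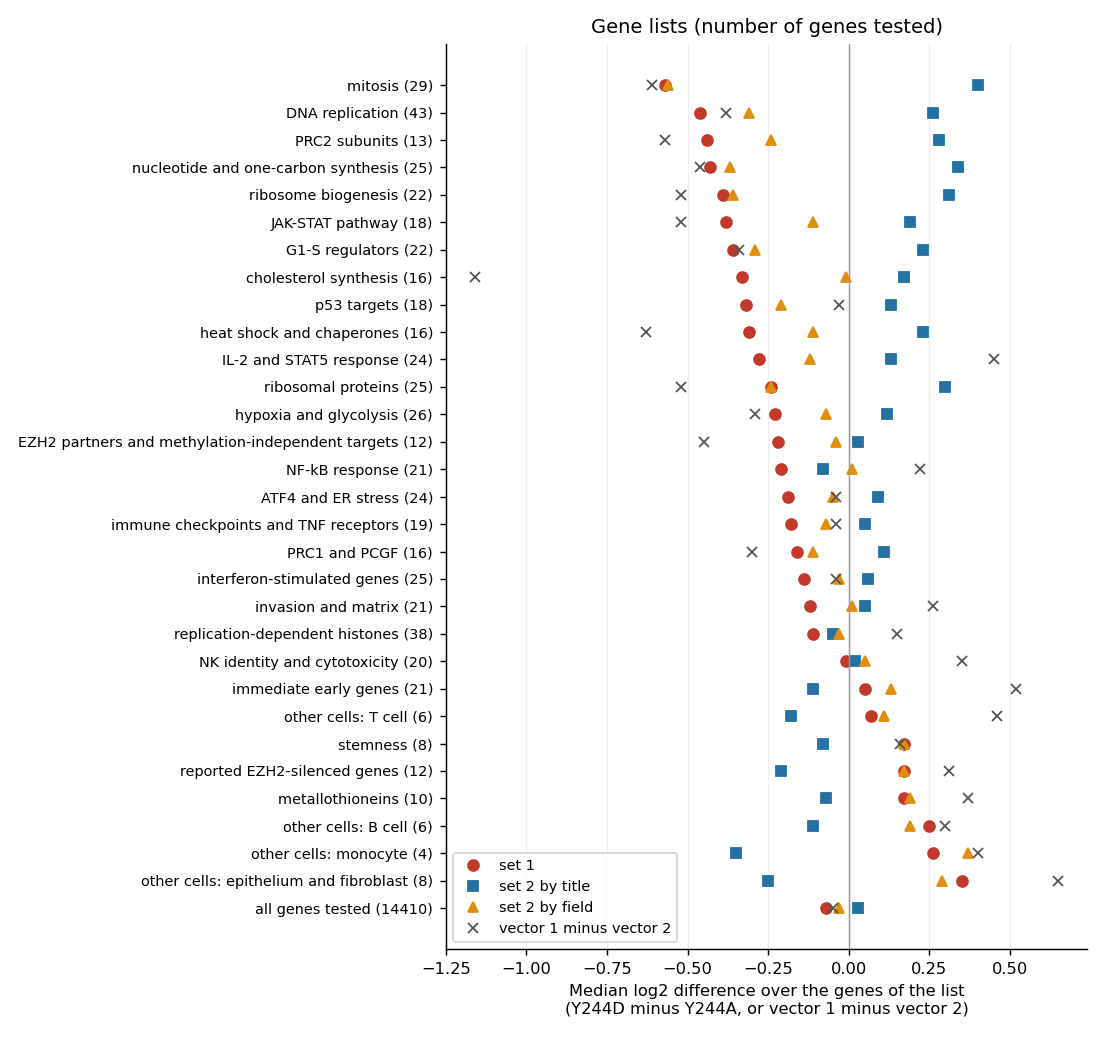
Median log2 difference over the genes of each list, for Y244D minus Y244A in set 1 (red circles), set 2 by title (blue squares) and set 2 by field (orange triangles), and for vector 1 minus vector 2 (grey crosses), with the number of genes tested in brackets. Mitosis lies at -0.57, 0.40, -0.56 and -0.61, and all genes tested lie close to 0 in each.

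PRC2 itself did not separate the alleles in the same way under every scaling. The 13 subunit genes had medians of -0.44 in set 1, 0.28 by title and -0.24 by field. Of them 0 reached 0.5 in both sets, against 4.6% of all genes lower by field. SUZ12 had 512.5 with Y244D and 766.9 with Y244A in set 1, and 630.5, 447.9 and 626.1 on the WT-field, MtCA and Mt2 arrays. EED had 155.6 and 244.9, and 262.7, 212.6 and 248.5. The fit without a vector called 8 of 13 lower and 1 higher, which was EZH2, against 25.8% and 7.7% of all genes. After quantile normalization it called 0 lower and 1 higher, against 12.4% and 5.59%. The medians in set 1 and by field were then -0.23 and -0.08. Of 12 genes reported to be silenced by EZH2, 0 reached 0.5 under either reading in both sets. Of all genes 0.222% were higher and 4.6% lower by field. The medians of the 12 were 0.17 in set 1, -0.21 by title and 0.17 by field.

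The share of JAK-STAT genes, the pathway of JAK3, that were at least 0.5 lower in both sets by field was near that of all genes. Of 18 tested, 1 was at least 0.5 lower in both sets by field (5.56%, against 4.6% of all genes). This was JAK2, with 49.91 against 71.04 in set 1 and 62.96 against 95.17 by field. STAT3 had differences of -0.19, 0.02 and -0.04, and STAT5B -0.29, 0.04 and -0.10. The list medians were -0.38, 0.19 and -0.11, and after quantile normalization -0.09, -0.02 and 0.09, so that the sign by field turned with the scaling. The fit without a vector called 7 of 18 lower and 1 higher, against 25.8% and 7.7% of all genes, and 4 lower and 1 higher after quantile normalization, against 12.4% and 5.59%. Of 24 genes of the response to interleukin-2 and STAT5, 1 was lower in both sets by field (4.17%), the cytokine gene IFNG (-0.51 and -0.76). Of 20 NK identity and cytotoxicity genes 0 were, with medians of -0.01, 0.02 and 0.05. The series also holds arrays of JAK3 siRNA, of EZH2 siRNA and of the control siRNA of each, outside the plasmid comparison. A change under siRNA is the mean of the siRNA arrays minus the mean of their control arrays. Across genes the allele differences correlated with the change under JAK3 siRNA at r = 0.065 in set 1, -0.047 by title and 0.023 by field. With the change under EZH2 siRNA r was 0.171, -0.185 and 0.196.

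Among the 32 genes higher with Y244D in both sets by field, chosen after their values were seen, REXO1L1P was the only one past 1 on the log2 scale. Its signal was 894.7 on the vector, 778.7 on the Y244D, 278.9 on the Y244A and 248.6 on the wild type array of set 1, and 251.4, 242.5, 575.1 and 266.5 on the vector, WT-field, MtCA and Mt2 arrays. It was high on vector 1, on Y244D and on the MtCA array, and within 242.5 to 278.9 on all others. DND1, an RNA-binding protein of germ cells, had 501.9 and 309 with Y244D and Y244A in set 1 and 441.1 and 284.1 on the MtCA and Mt2 arrays; its vectors had 478.1 and 305.5. ZBTB42, TCAF1, FAM30A, DNM1P46, LY86-AS1, CEMP1 and the multicopy genes DUX4 and KRTAP10-4 were also in this group. ADM, the peptide hormone adrenomedullin, was the only member of the hypoxia list there (0.56 and 0.51).

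Among the 663 lower by field, likewise chosen after their values were seen, MINAR2 had 68.50 and 135 in set 1 and 102.8 and 254.7 on the MtCA and Mt2 arrays. Its vectors had 55.74 and 252.8, the latter close to the Mt2 and WT-field arrays. PTPN22, a phosphatase that restrains antigen receptor signalling, had 71.98 and 134.1, and 75.65 and 139.7. CYTIP, a regulator of leukocyte adhesion, had 296.2 and 527.5, and 251.7 and 495.3. UTS2B, ORMDL1, ZFAND1, MICU2, IKBIP, FASTKD1, ABCD2, APOO, GTF2A2, LYPLAL1, ANTXR2, AP5M1 and CHMP2B were among the others. Each of the 32 and of the 663 had the opposite sign by title, where the MtCA array counts as Y244A. That role alone does not force it, as some other genes kept their sign under both readings. The 32 and the 663 were picked for a gap between the MtCA and Mt2 arrays, and the WT-field and Mt2 arrays both lay close to their vector.

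**Figure D5:**
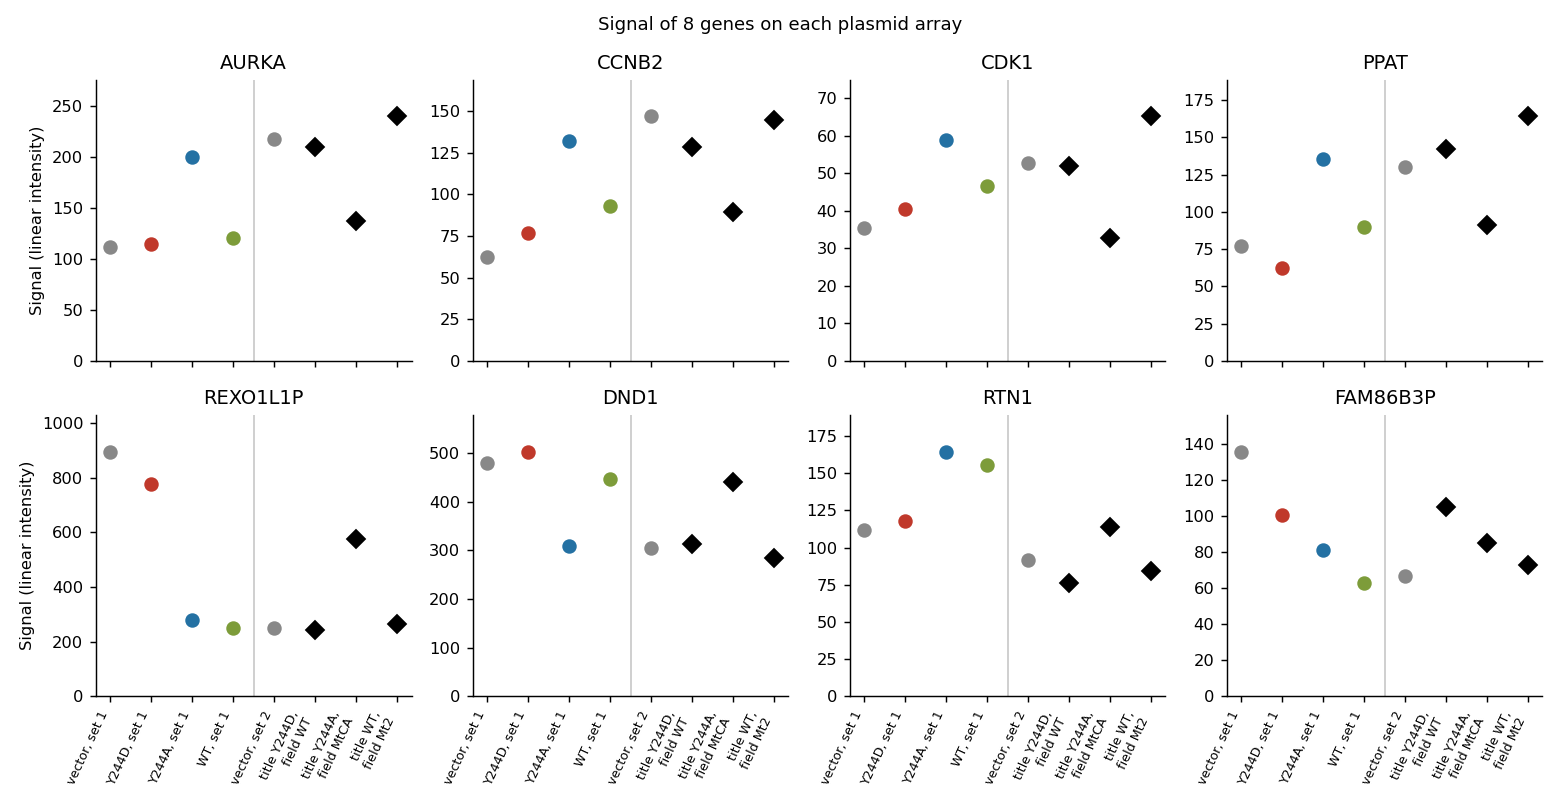
Linear signal of 8 genes on each of the 8 plasmid arrays (axes from 0; 1 point per array, no error bar; black diamonds are the set 2 arrays whose title and field differ). AURKA, CCNB2, CDK1 and PPAT are high on the Y244A array of set 1 and low on the array with field MtCA. REXO1L1P and DND1 are lower on the Y244A than the Y244D array of set 1 and high on the MtCA array. REXO1L1P is low on the wild type array of set 1 as well. RTN1 follows the titles and FAM86B3P keeps 1 order under both readings.

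Read by title, 1 gene agreed at 0.5, and 1067 higher and 1410 lower agreed in sign alone. CFAP44 had 80.15 with Y244D and 53.24 with Y244A in set 1, and 79.46 and 55.64 on the WT-field and MtCA arrays. Its vectors had 56.99 and 82.33, so that Y244D matched the vector in set 2 and Y244A did in set 1. RTN1, a reticulon of the endoplasmic reticulum, had the smallest p by title. Its signal was 117.9 and 164.3 in set 1 and 76.24 and 113.8 in set 2, with a difference of -0.53 and an SE of 0.199 (unadjusted p = 0.0268 and adjusted p = 1, limma). KLRC4-KLRK1, a readthrough of NK receptor genes, was higher by 0.37 and 0.87. Among the lowest by title were the small nucleolar and Cajal body RNAs SNORA14A (-0.55 and -0.50), SCARNA4 (-0.68 and -0.48), SNORA75 (-0.45 and -0.43) and SNORA3A, which were also far apart between the 2 vectors, by -1.79 for SNORA14A, -2.73 for SCARNA4 and -2.14 for SNORA75. These genes were chosen after their values were seen, and they share the MtCA array with the field reading.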

How the data were processed

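The authors deposited linear signal intensity for 28869 probe sets on 17 arrays; the background correction, normalization and probe summary are not given in the sources used here. Per the labels' protocols, RNA was taken after electroporation and labelled with biotin. Intensities were used as deposited, after log2. Of the probe sets 19310 had 1 gene symbol, 1752 several and 7807 none in the platform annotation; the highest probe set stood for each of 18377 genes, and 14410 passed a filter at the 30th percentile of the mean over the 8 plasmid arrays (EZH2 and JAK3 were kept regardless). RefSeq gene identifiers matched for 19279 probe sets and changed 0 symbols.

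The 8 plasmid arrays were fitted with lmFit and eBayes of limma 3.58.1 in R 4.3.3, tables read by data.table (version 1.17.8), with the set as a block and 3 residual degrees of freedom, two-sided, with Benjamini-Hochberg adjustment over all genes and a threshold of 0.05, once for each reading of set 2. P-values reflect only how far these arrays differ, and nothing says that they came from separate cultures. Titles give the set number for every array but the one titled EZH2 WT, which was placed in set 2 by its field Mt2. Deviations of arrays of the same set from their group means correlated at 0.008 to 0.919 by title and at 0.708 to 0.856 by field. Each group holds 1 array per set, so both sets give the same values. The deviations are parts of the set 1 minus set 2 difference, so these correlations mostly describe the gap between the sets. Figures were drawn with matplotlib 3.10.9 in Python 3.11.15, with pandas 2.3.3.

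Named genes were EZH2 and JAK3, the 10 per direction with the largest smallest difference of the 3, the 5 per direction with the smallest larger p of both fits, list members whose smallest difference reached 0.2 (0 did) and the 5 largest per direction in set 1; others are marked as chosen after seeing values. The members and lists were chosen with earlier results of these data known. The fits were tested on simulated data of 14410 genes: for Y244D against Y244A by field, a log2 change of 0.5 was recovered for 0% of 100 genes and a change of 1 for 25% of another 100, with 1 false call, and by title 0% and 0% with 0 false calls. Alternatives were quantile normalization, median centring, other filters, the mean of probe sets, other folds, no block, a spread covariate and leaving out each array. The number of arrays limits the precision.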

Additional observations from a re-analysis of the deposited data

Results flagged for a closer look

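EZH2, PPAT and REXO1L1P moved in opposite directions in the 2 sets when set 2 was read by title, with 1 array per allele and set, and the difference between the sets was not tested. Y244D minus Y244A on the log2 scale was 1.38 in set 1 and -0.55 in set 2 by title for EZH2. For PPAT, of purine synthesis, it was -1.13 and 0.64. For REXO1L1P, of a repeated gene family, it was 1.48 and -1.25. By field the set 2 values were 0.42, -0.84 and 1.11, with the signs of set 1.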

How the results depend on the processing

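In the fits of all 8 arrays Y244D against Y244A had 0 calls under both readings with every alternative except the fits without a vector array. Leaving out 1 array in turn gave 0 to 0 calls by title and 0 to 4822 by field for this comparison, 0 to 1 and 0 to 1339 for Y244D against vector, and 0 to 0 and 0 to 5191 for Y244A against vector; fits without a vector called 2593 by field after quantile normalization, an alternative chosen after seeing the data. Without the replicate block, which the main design has, the field call of EZH2 against the vector went from 1 to 0, and the block changed no other call; it was also 0 with median centring and with no filter. A covariate for the spread of each array, chosen after seeing the data, gave 15 calls for Y244D and 1 for Y244A against the vector by field.

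Genes agreeing in all 3 differences went from 0 to 371 higher and 334 lower when only the sign was asked. By title the 1 gene higher became 0 with the 50th percentile filter, the mean of probe sets or a fold of 1, 8 at 0.3 and 1067 by sign, and the 0 lower became 2 with quantile normalization, 9 at 0.3 and 1410 by sign. By field the 32 higher became 89 with quantile normalization, 6 with median centring, 573 at 0.3, 1 at 1 and 5269 by sign, and the 663 lower became 366, 1408, 2584, 0 and 6628. The correlations of set 1 with set 2 were -0.67 by title and 0.667 by field after quantile normalization. The EZH2 difference was 1.56, -0.77 and 0.59 (set 1, title, field) with quantile normalization and 1.3, -0.46 and 0.31 with median centring. Over all results 127 settings of the counts and correlations stayed within 1.5 times or their tolerance and 41 moved; of the named single genes 24 stayed within 0.05 and 140 moved. The 2 readings share the MtCA array and are not independent, and 1 array per allele and set leaves no spread within a set.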
